A study of Mus musculus with 24 samples.

Results

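The acute phase protein genes described here are Crp, Apcs, Orm1, Orm2, Saa1, Saa2, Saa3, Saa4, Hp and Hpx. They were chosen by name, and all 10 were found among the 27179 gene rows of the deposited table. The table gives H3K27Ac, acetylation of lysine 27 on histone H3, over genes in brain, heart, kidney and liver of the mouse, measured by chromatin immunoprecipitation and sequencing (ChIP-seq). Organs were taken as Frozen (flash frozen, cores crosslinked with 1% formaldehyde for 30 min) or as FFPE (fixed in 10% formalin, embedded in paraffin, chromatin extracted at 95 °C for 20 min). No treatment beyond preservation and no genotype, strain, age or animal is named for any group, and the labels name no inflammatory stimulus. The study asked how epigenetic marks read from FFPE tissue compare with those from frozen tissue of the same organ. The labels list 16 H3K27Ac samples, 2 for every organ in either preservation, and 8 inputs that were not analysed here.

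There is 1 column per organ and preservation, so each group is 1 library here. Whether a column is a single sample or a merge of both was not given in the sources used here. Values are log2 CPM, the log2 of a gene's reads relative to the size of its library, after a scaling by the authors. All 10 genes had at least 1 count in a library and entered the fit of 26944 genes. Libraries held 4404789 to 6164562 counts, and the median gene had 87 to 119. Mitochondrial genes took 4.52% to 5.62% of the counts in Frozen libraries and 12.7% to 36.0% in FFPE libraries. Each organ carried H3K27Ac over its own cells' genes: the median of 12 hepatocyte markers was 6.98 to 7.15 log2 CPM in liver and 3.52 to 4.91 elsewhere, and neuron, cardiomyocyte and nephron markers were likewise highest in brain, heart and kidney. ChIP runs and library kits could not be matched to the columns, so whether they differed between the groups is not known and their part was not tested.

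Acute phase proteins are plasma proteins whose levels change during infection and tissue injury. Cytokines of the interleukin-6 and interleukin-1 families reach hepatocytes, where STAT3, NF-kB and C/EBP factors act on the promoters of these genes together with liver factors such as HNF4A. Crp and Apcs encode pentraxins, ring-shaped proteins that bind microbial and dead-cell surfaces, and in mice the Apcs product, serum amyloid P, is the more inducible. Orm1 and Orm2 encode orosomucoids, plasma glycoproteins that carry drugs and lipids. Saa1 and Saa2 encode the inducible serum amyloid A apolipoproteins of liver, Saa3 a form known from macrophages and fat as well, and Saa4 a form made steadily in liver. Hp and Hpx encode haptoglobin and hemopexin, which capture free haemoglobin and free haem. H3K27Ac marks active promoters and enhancers, so the signal over a gene describes its chromatin and is not a measure of its RNA.

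The genes lie at 5 loci of GRCm38, the assembly of mm10. Crp (chr1:172698056-172699966) and Apcs (chr1:172893961-172895054) are 194 kb apart. Orm1 (chr4:63344556-63348163) and Orm2 (chr4:63362449-63365877) are 14.3 kb apart with Orm3 between them. Saa3 (chr7:46711998-46719615), Saa4 (chr7:46727992-46732603), Saa1 (chr7:46740497-46743181) and Saa2 (chr7:46751833-46754313) follow each other with gaps of 8.38, 7.89 and 8.65 kb. Hp is at chr8:109575128-109579172 and Hpx at chr7:105591611-105600116. These are whole gene spans, and which part of a gene was counted was not given in the sources used here.

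Promoter sequence was available from RefSeq (GRCm38.p6) for 8 of the 10 genes, and Orm1 and Hp had no entry. Each window runs from 250 bases before to 50 bases after an annotated start, written 5′ to 3′ on the gene's strand. The windows are shown for 6 genes. They are the pentraxins, whose liver signal was among the highest, and the 4 serum amyloid A genes, which are neighbours with very unequal H3K27Ac. Capitals mark matches to short motifs searched in every window. The motifs were C/EBP (TTGCNNAA), STAT (TTCNNNGAA) and NF-kB (GGANNTTCC) on both strands and the TATA box (TATAAA) on the gene's strand. The windows are chr1:172697806-172698105 (plus strand) for Crp, chr1:172895005-172895304 (minus strand) for Apcs, chr7:46732554-46732853 (minus strand) for Saa4, chr7:46742931-46743230 (minus strand) for Saa1, chr7:46751583-46751882 (plus strand) for Saa2 and chr7:46715627-46715926 (minus strand) for Saa3. For Saa1 and Saa3 the annotated start lies inside the gene's span.
Crp: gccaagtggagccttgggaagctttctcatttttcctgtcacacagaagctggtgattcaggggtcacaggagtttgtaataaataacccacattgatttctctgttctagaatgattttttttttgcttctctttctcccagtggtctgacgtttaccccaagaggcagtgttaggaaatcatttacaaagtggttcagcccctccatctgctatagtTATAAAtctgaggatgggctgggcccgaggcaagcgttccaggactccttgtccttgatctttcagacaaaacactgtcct
Apcs: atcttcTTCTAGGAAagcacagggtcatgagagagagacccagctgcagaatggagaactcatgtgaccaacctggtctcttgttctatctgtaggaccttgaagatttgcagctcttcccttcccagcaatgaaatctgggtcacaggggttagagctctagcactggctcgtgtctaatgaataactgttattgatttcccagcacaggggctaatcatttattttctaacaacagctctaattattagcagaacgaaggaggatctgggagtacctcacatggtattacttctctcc
Saa4: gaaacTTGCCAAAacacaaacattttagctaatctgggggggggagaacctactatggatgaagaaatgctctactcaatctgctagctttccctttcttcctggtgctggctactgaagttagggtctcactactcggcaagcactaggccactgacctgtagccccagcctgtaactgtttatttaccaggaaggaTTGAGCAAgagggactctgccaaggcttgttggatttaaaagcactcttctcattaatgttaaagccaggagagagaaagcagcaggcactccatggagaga
Saa1: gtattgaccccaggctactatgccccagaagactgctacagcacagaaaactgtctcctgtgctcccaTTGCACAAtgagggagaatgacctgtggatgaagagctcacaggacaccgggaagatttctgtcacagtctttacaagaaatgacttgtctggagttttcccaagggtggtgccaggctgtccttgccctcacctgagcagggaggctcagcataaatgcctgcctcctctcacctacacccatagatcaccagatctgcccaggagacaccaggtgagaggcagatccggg
Saa2: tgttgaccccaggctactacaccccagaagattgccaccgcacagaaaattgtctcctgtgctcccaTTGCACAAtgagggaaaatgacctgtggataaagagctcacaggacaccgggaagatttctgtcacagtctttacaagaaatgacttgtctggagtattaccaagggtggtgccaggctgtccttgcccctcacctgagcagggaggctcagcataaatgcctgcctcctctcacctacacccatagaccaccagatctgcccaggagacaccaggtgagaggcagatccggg
Saa3: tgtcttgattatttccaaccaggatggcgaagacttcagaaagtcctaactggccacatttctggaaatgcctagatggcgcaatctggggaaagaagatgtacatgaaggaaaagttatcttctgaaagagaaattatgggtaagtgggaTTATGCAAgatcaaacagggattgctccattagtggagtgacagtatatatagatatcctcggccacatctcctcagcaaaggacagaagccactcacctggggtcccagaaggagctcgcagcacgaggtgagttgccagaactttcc

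A C/EBP match was present in 6 of the 8 windows, those of Orm2, Saa1, Saa2, Saa3, Saa4 and Hpx, against 10.1% of 22271 windows of 18458 genes. Saa1 and Saa2 count nearly as one here, since their windows were identical at 287 of 301 aligned columns (95.3%) and hold the same TTGCACAA. Orm2 has TTGCGCAA at bases -120 to -113 from the start and Hpx has TTGCTGAA at -200 to -193. Saa4 holds 2 matches, at -245 to -238 and at -52 to -45. The STAT motif was found in Apcs alone (TTCTAGGAA at -244 to -236), against 7.81% of all windows. Crp and Orm2 had a TATA box, at -31 to -26 and at -33 to -28, against 8.08% of all windows. No window held the NF-kB motif (4.36% of all windows) in these letters. No matches of different motifs overlapped. The 8 windows had 1 to 5 CpG dinucleotides and 45% to 55% GC, whereas the median of all windows was 13 CpG and 56.3% GC. A match describes letters in a window and does not show that a factor binds there.

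H3K27Ac over these genes was far higher in liver than in the other organs for 6 of the 10, moderately higher for 2, and not distinguishable for 2. Over both preservations, 8 of the 10 passed the threshold as higher in liver than the mean of brain, heart and kidney (limma, Benjamini-Hochberg adjusted p under 0.05 over all genes), and none as lower. Of all genes tested, 11.2% were called higher and 9.73% lower in the same comparison. The median difference of the 10 was 2.58 on the log2 scale, against -0.06 for all genes. Both liver libraries lay above all 6 other libraries for the same 8 genes, as they did for 9.6% of all genes. The genes were proposed with earlier results of these data known, so these counts describe them and are not an independent test. In tissue libraries, a larger share of acetylating cells and more acetylation per cell cannot be told apart.

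**Figure D1:**
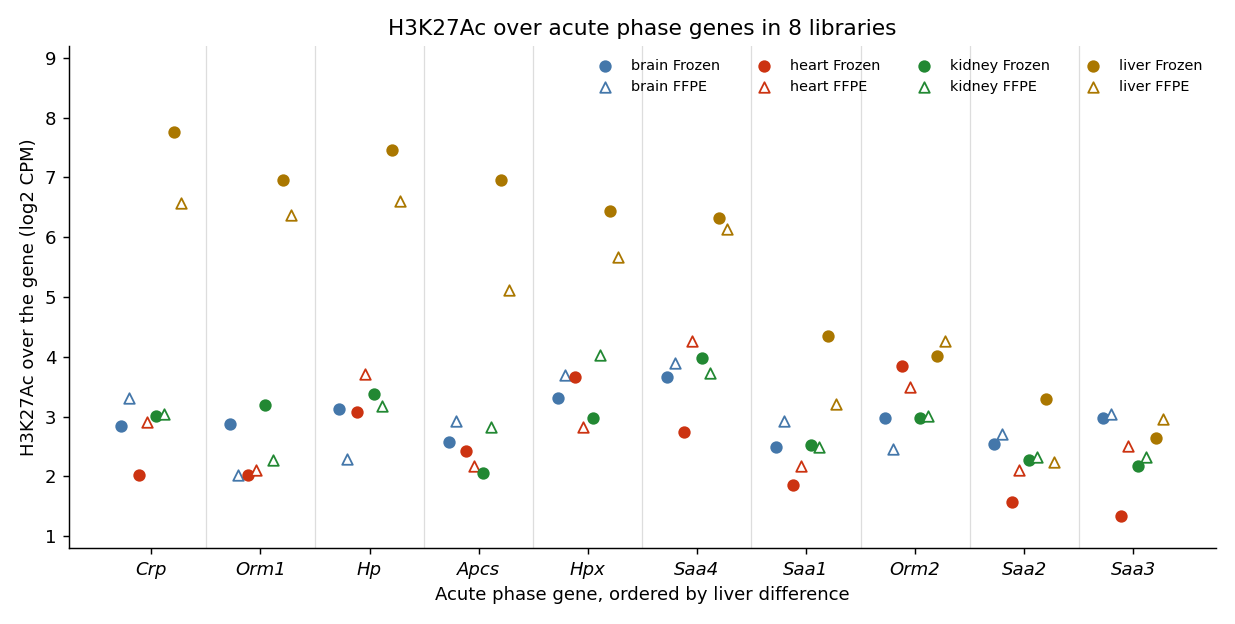
Each point is the H3K27Ac value (log2 CPM, vertical axis) of 1 gene in 1 library, with organs in colour, Frozen as filled circles and FFPE as open triangles, and genes ordered along the horizontal axis by their liver difference. Both liver points stand above all others from Crp to Orm2 and mix with them at Saa2 and Saa3.

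Among the 10 genes the widest gap between liver and the rest was that of the pentraxin gene Crp. Crp read 7.77 log2 CPM in liver Frozen (1232 counts) and 6.57 in liver FFPE (435 counts), while the other 6 libraries ran from 2.02 to 3.30 with a median of 2.96 (18 to 47 counts). The lower liver library was 3.27 log2 units above the highest of the rest. The liver difference of Crp was 4.31 ± 0.32 log2 units (SE; limma adjusted p = 5.15e-12), the 2nd largest of 26944 genes. Apcs read 6.96 in liver Frozen (703 counts) and 5.12 in liver FFPE (158 counts), and the others ran from 2.06 to 2.92 with a median of 2.50. Its liver difference was 3.54 ± 0.38 (limma adjusted p = 6.87e-09), which ranked 39th. Liver FFPE stood well below liver Frozen for both genes and still apart from every other library.

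The orosomucoid genes gave a large liver difference at Orm1 and a small one at Orm2, and the difference between the genes was not tested. Orm1 had 6.97 in liver Frozen (707 counts), 6.37 in liver FFPE (378 counts), and 2.02 to 3.19 elsewhere with a median of 2.19. Its liver difference of 4.25 ± 0.32 (limma adjusted p = 6.49e-12) ranked 3rd of all genes. Orm2, in the same cluster, read only 4.01 and 4.26 in liver Frozen and FFPE, from 91 and 87 counts. Its other libraries ran from 2.46 to 3.84 with a median of 3.00, so the liver libraries cleared heart Frozen, the highest of them, by 0.17. The difference of Orm2 was 1.01 ± 0.33 (limma adjusted p = 0.0238). It missed the threshold in 6 of 17 alternatives, including those without liver Frozen, without liver FFPE and without kidney Frozen, with adjusted p up to 0.270. Orm3, which lies between them, read 5.47 in liver Frozen and 5.51 in liver FFPE against 2.16 to 3.58, a difference of 2.80 ± 0.34 (limma adjusted p = 7.59e-08). The Orm2 and Orm3 windows were 86.6% identical, and the treatment of reads that fit several copies is not stated. The split of the signal within this cluster is therefore uncertain.

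Among the serum amyloid A genes, Saa4, the form made steadily, had the largest liver difference. Saa4 read 6.32 in liver Frozen (451 counts) and 6.13 in liver FFPE (320 counts), with the others at 2.74 to 4.26 with a median of 3.81. Its difference was 2.51 ± 0.29 (limma adjusted p = 3.73e-08). Saa1 read 4.35 in liver Frozen (115 counts) and 3.22 in liver FFPE (42 counts), against 1.86 to 2.92 elsewhere with a median of 2.49. Its difference of 1.37 ± 0.39 passed (limma adjusted p = 0.0101), yet it rested on liver Frozen: without that library it was 0.69 with an adjusted p of 0.588. The call was also lost with a prior variance that does not follow the mean.

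Saa2 and Saa3 did not pass. Saa2 read 3.29 in liver Frozen (55 counts) and 2.23 in liver FFPE (21 counts), and the others ran from 1.57 to 2.71 with a median of 2.31, so the FFPE liver library fell among them. Its difference was 0.51 (95% interval -0.36 to 1.37; limma adjusted p = 0.465). Saa3 read 2.65 in liver Frozen and 2.96 in liver FFPE (35 counts in each), within the range of 1.33 to 3.04 of the others, whose median was 2.42. Its difference was 0.41 (95% interval -0.42 to 1.24; limma adjusted p = 0.556). Both upper bounds exclude a difference as large as that fitted for Saa4 and leave room for one of about the size fitted for Orm2. Because the Saa1 and Saa2 windows are nearly identical, reads could have been split or dropped between them, and their separate values are uncertain.

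Haptoglobin and hemopexin, the scavengers of haemoglobin and haem, were both high in liver. Hp read 7.46 in liver Frozen (995 counts) and 6.60 in liver FFPE (444 counts), against 2.29 to 3.71 elsewhere with a median of 3.15. Its difference was 3.90 ± 0.29 (limma adjusted p = 6.07e-12), ranking 16th. Hpx read 6.44 in liver Frozen (492 counts) and 5.67 in liver FFPE (233 counts), against 2.82 to 4.04 with a median of 3.49. Its difference was 2.64 ± 0.31 (limma adjusted p = 5.89e-08), ranking 199th. For both genes the 2 liver libraries stood clear of the rest, by 2.89 log2 units for Hp and by 1.64 for Hpx. Saa4 ranked 248th, Saa1 1142nd, Orm2 1916th, Saa2 4626th and Saa3 5667th.

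The liver difference was also taken within each preservation, as a value with no test. It was positive for all 10 genes among Frozen libraries and for 9 among FFPE libraries, Saa2 being the exception at -0.15. The Frozen value exceeded the FFPE value for 9 genes, by the most for Apcs (4.60 against 2.47) and Crp (5.14 against 3.48). It was nearly the same for Orm1 (4.27 against 4.24), and it was smaller for Orm2 (0.75 against 1.27). Hp gave 4.26 and 3.54, Hpx 3.13 and 2.15, Saa4 2.85 and 2.17, Saa1 2.06 and 0.69, Saa2 1.16 and -0.15, and Saa3 0.49 and 0.33. For Crp and Apcs both values lay outside the 95% limma interval of the fit over both preservations (3.66 to 4.96 and 2.77 to 4.30). The SE and p-value of these genes therefore do not cover the gap between liver Frozen and liver FFPE. The FFPE value of each gene is also its value without the liver Frozen library. Crp, Apcs, Orm1, Saa4, Hp and Hpx stayed called in all 17 alternatives. The size of their adjusted p depended strongly on the setting, and in some alternatives it was many orders of magnitude larger than the value given above.

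**Figure D2:**
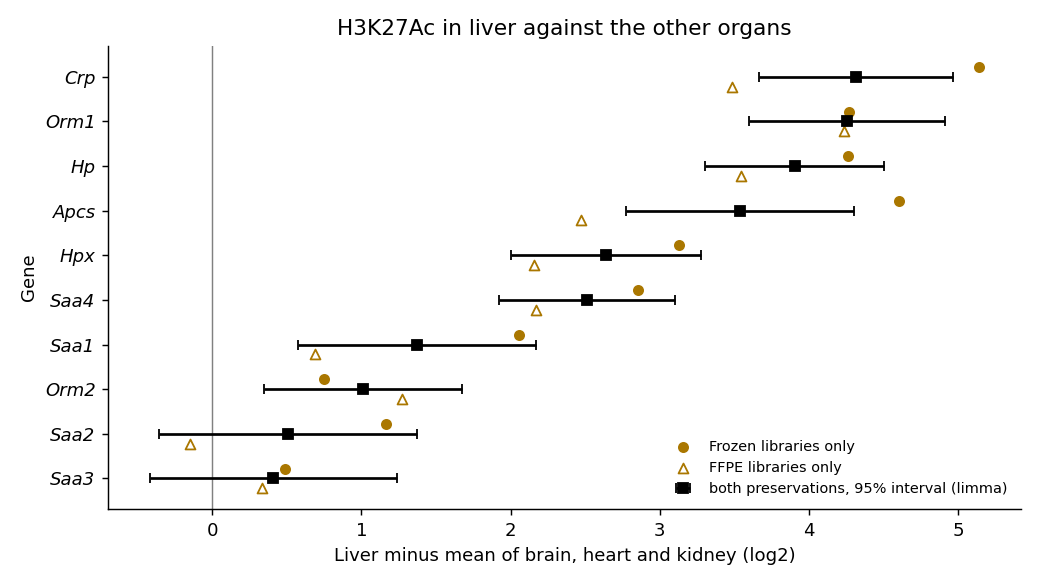
The horizontal axis is the liver value minus the mean of brain, heart and kidney (log2) for each gene on the vertical axis. Squares with bars are the limma estimate over both preservations with its 95% interval, filled circles the Frozen libraries and open triangles the FFPE libraries, and only the bars of Saa2 and Saa3 cross 0.

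Levels of different genes were compared here as log2 CPM per kb of gene span. H3K27Ac marks promoters and enhancers and need not scale with span. The order therefore depends on span too, which ran from 1094 bases (Apcs) to 8506 (Hpx). In liver Frozen, Crp and Apcs both stood at 6.83 on this scale, followed by Hp at 5.44, Orm1 at 5.11, Saa4 at 4.11 and Hpx at 3.35. Saa1 followed at 2.93, Orm2 at 2.24, Saa2 at 1.98 and Saa3 at -0.28. In liver FFPE, Crp led at 5.64, and Apcs, Hp and Orm1 came next at 4.99, 4.59 and 4.52. Outside liver all 10 genes lay between -1.59 (Saa3, heart Frozen) and 2.80 (Apcs, brain FFPE) per kb. With 1 library per group and an unknown counted region, close neighbours in this order are not separated.

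Brain, heart and kidney could not be ordered for these genes. None of the 10 was called between kidney and the mean of brain and heart, where 7.29% of all genes were called, and the smallest limma adjusted p was 0.569, with 0 genes under an unadjusted p of 0.05. None was called between heart and brain, where 21.1% of all genes were called. There 2 genes were under an unadjusted limma p of 0.05: Orm2 was 0.95 higher in heart (limma adjusted p = 0.0877) and Saa3 was at -1.09, heart minus brain (limma adjusted p = 0.119), with 1.33 and 2.51 in heart against 2.98 and 3.04 in brain. The call for heart against brain depended on the scaling: Orm2 and Hp passed after quantile normalization and after setting equal medians and spreads, and Saa3 passed with total counts alone. Each gene had 11 to 89 counts outside liver, and the 95% intervals were wide: over the 10 genes they reached from -1.09 to 1.17 for kidney and from -2.10 to 1.76 for heart against brain.

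Between preservations over all organs, none of the 10 genes was called, while 3.91% of all genes were. The smallest limma adjusted p was 0.310, for Orm1 at -0.57 ± 0.28, FFPE minus Frozen, which was the 1 gene under an unadjusted p of 0.05. The median of the 10 was -0.09 against 0.02 for all genes. Outside liver the log2 differences, FFPE minus Frozen, had both signs. In brain 7 of the 10 were positive, and they ran from -0.86 (Orm1) and -0.84 (Hp) to 0.46 (Crp). In heart 7 were positive, from -0.83 (Hpx) to 1.17 (Saa3) and 1.52 (Saa4). In kidney 6 were positive, from -0.91 (Orm1) to 0.78 (Apcs) and 1.06 (Hpx). These values come from 11 to 89 counts and have no replicate. The mitochondrial share moved with preservation in every organ, and with library sizes taken outside mitochondrial genes none of the 10 genes was called either.

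In liver itself, FFPE lay below Frozen for 8 of the 10 genes, with a median log2 difference of -0.81 against 0.04 for all genes. Liver counts ran from 21 to 115 for Orm2, Saa1, Saa2 and Saa3 and were higher for the others. The Frozen to FFPE ratio of scaled counts was 3.59 for Apcs (exact 95% interval 3.02 to 4.30) and 2.29 for Crp (2.05 to 2.56). It was 2.21 for Saa1 (1.54 to 3.23), 2.11 for Saa2 (1.26 to 3.68), 1.81 for Hp (1.62 to 2.03), 1.70 for Hpx (1.46 to 2.0) and 1.51 for Orm1 (1.33 to 1.72). The intervals of Saa4 (1.14, 0.984 to 1.32), Orm2 (0.844, 0.622 to 1.15) and Saa3 (0.807, 0.491 to 1.33) included 1. These are binomial (Clopper-Pearson) intervals, which cover counting error between these libraries only. The interval of Apcs lay above those of the other genes except Saa1 and Saa2, which it overlapped. The interval of Crp lay within those of Saa1 and Saa2, so these are not separated.

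**Figure D3:**
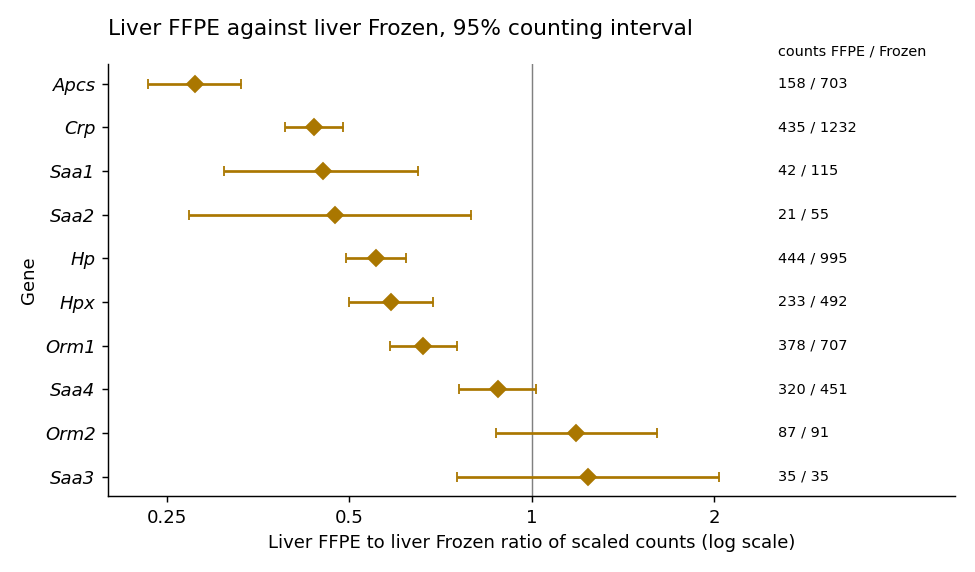
The horizontal log axis is the ratio of scaled counts in liver FFPE to those in liver Frozen for each gene on the vertical axis, with the exact 95% counting interval as a bar and the counts of both libraries at the right. The intervals of 7 genes lie wholly below 1, and those of Saa4, Orm2 and Saa3 include 1.

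Whether this liver difference departs from that of the other organs was tested with 1 liver by preservation term, which takes brain, heart and kidney as replicates. None of the 10 genes was called, and of all genes 2 were (0.00742%), Inhbe and Rnf225. The smallest limma adjusted p was 0.333. The 2 genes under an unadjusted limma p of 0.05 were Apcs at -2.13 ± 0.64 and Crp at -1.66 ± 0.55, and 9 of the 10 differences were negative, with a median of -0.85. Apcs was called without heart Frozen and without heart FFPE, with adjusted p down to 0.0048, but in these fits 676 and 692 of all genes were called (2.51% and 2.57%). Other plasma protein genes were also lower in liver FFPE. The 10 that fall in the acute phase were all lower, with a median log2 difference of -0.65 and a median liver term of -1.14, and their summed CPM in FFPE was 0.595 of that in Frozen. Of 20 others that rise, 16 were lower (median -0.35, ratio 0.677), and of 6 liver transcription factors all were lower (median -0.60). The 12 hepatocyte markers had a median of -0.15, with 8 lower and a ratio of 0.785. For the 10 acute phase genes, which summed to 862 and 472 CPM, the ratio was 0.548. Markers of the other organs mostly went the other way. Of 10 cardiomyocyte markers all 10 were higher in liver FFPE (median 0.51). So were 9 of 10 neuron markers (median 0.33) and 8 of 10 nephron markers (median 0.28). The spread of log2 values over all genes (interquartile range) was 3.29 for the Frozen liver library but 2.66 for the FFPE one. The part of this narrower spread in the lower values was not tested. Differences between these lists were not tested. The mitochondrial share was 5.29% in the Frozen liver library and 12.7% in the FFPE one, and with library sizes taken outside mitochondrial genes the count of calls was again 0. A difference between the mice behind the libraries cannot be told apart from preservation.

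Genes next to the acute phase loci were read for comparison. Around the serum amyloid A cluster, Saal1 (1.31 kb before Saa3) and Hps5 (6.15 kb after Saa2) differed in liver by -0.26 and 0.16, neither called. Around the orosomucoid cluster, Col27a1 (0.32) and Akna (-0.17, 1.25 kb after Orm2) were not called. Txnl4b, a splicing-related gene whose end lies 1.08 kb before Hp, was called higher at 2.07 ± 0.23 (limma adjusted p = 1.80e-08), and Dhodh, an enzyme of pyrimidine synthesis 14.1 kb after Hp, at 0.81 ± 0.22. Hpx lay between 2 genes with differences below 0: Apbb1, 9.69 kb away, was called at -1.52 ± 0.21 and Trim3, 4.35 kb away, was at -0.59 (limma adjusted p = 0.0744). The genes nearest the pentraxins are over 60 kb off, Dusp23 at 0.90 ± 0.23 (called) and the odorant receptor gene Olfr16 at 0.09 (not called).

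**Figure D4:**
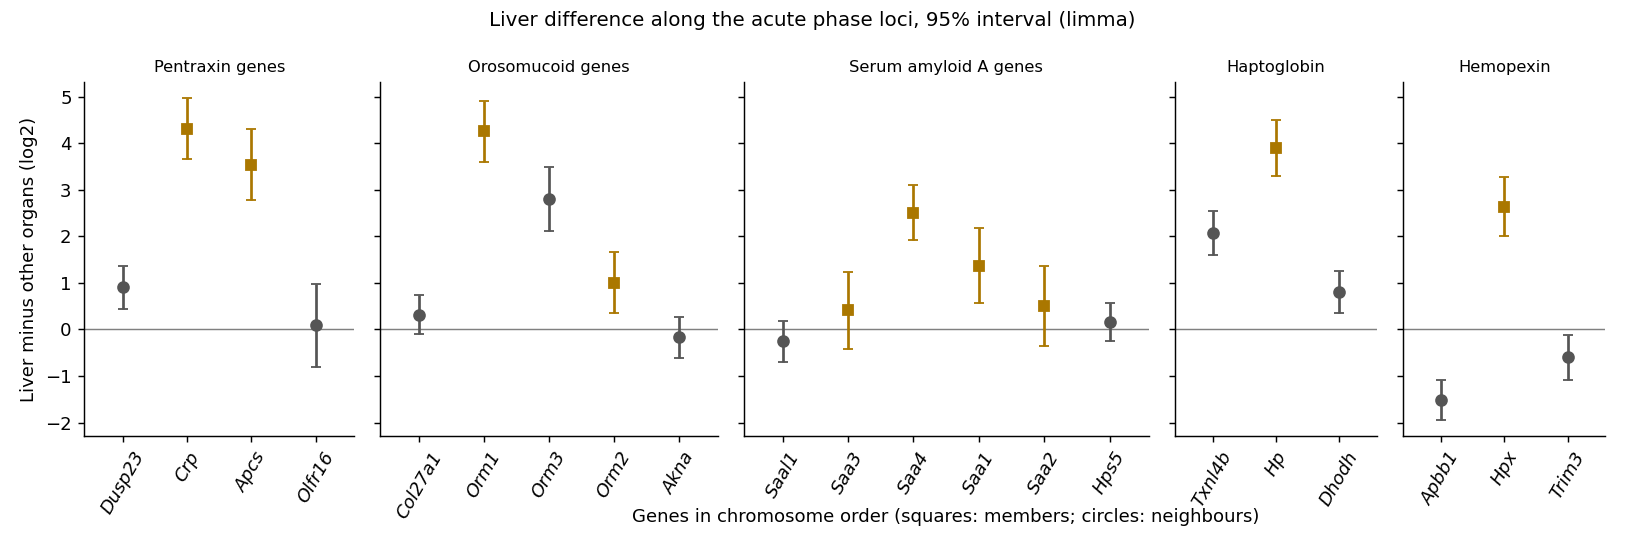
Genes stand in chromosome order within 5 loci along the horizontal axis, and the vertical axis is the liver difference (log2) with its 95% limma interval, squares for the acute phase genes and circles for Orm3 and the neighbours. In the serum amyloid A panel the peak is at Saa4 (2.51) with flanks near 0, and in the haptoglobin panel the neighbour Txnl4b is raised at 2.07.

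The other genes of the response were taken from lists by role. Of all genes, 11.2% were called higher in liver and 9.73% lower. Of 9 cytokines, 1 was called higher in liver (Il1a, interleukin-1 alpha, 0.86 ± 0.28) and 2 lower (Lif, -0.68 ± 0.24, and Clcf1, an interleukin-6 family ligand, -1.02 ± 0.32), with a median of -0.44. The calls of Il1a and Clcf1 were lost in 8 and 7 of 17 alternatives. Lif passed narrowly (limma adjusted p = 0.0419), and its call was not followed through the alternatives. Its liver FFPE value of 4.84 lay among those of brain and kidney (4.66 to 5.05), and heart was highest at 5.89 and 5.49. Of 9 cytokine receptors, 6 were higher and none lower, with a median of 0.72. Il1rap, the accessory chain of the interleukin-1 receptor, led at 1.72 ± 0.20, followed by the TNF receptor gene Tnfrsf1b at 1.57 ± 0.21. Il6ra and Il6st, which form the interleukin-6 receptor, were at 0.96 ± 0.22 and 0.63 ± 0.20. Of 13 signal transducers, 6 were higher and none lower, among them Socs3, a feedback inhibitor of STAT3 (0.96 ± 0.22), and Nfkbia, the inhibitor of NF-kB (0.75 ± 0.23). Heart was high too: 6 of the 9 receptors and 8 of the 13 transducers were called higher in heart than in brain, and none lower. In Frozen and FFPE, Il6ra read 7.09 and 6.14 in heart against 7.04 and 6.82 in liver. Socs3 read 7.17 and 6.39 in heart against 7.17 and 6.52, and Nfkbia 8.08 and 7.84 against 8.21 and 7.41. The calls of Socs3 and Nfkbia were lost in 2 and 4 alternatives, and both were lost without liver Frozen.

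Of the transcription factors that act on these promoters in liver, 5 of 6 were called higher and none lower, with a median of 1.37. Foxa2 was at 3.30 ± 0.27 and Hnf4a at 2.52 ± 0.21. Cebpa, at 1.85 ± 0.21, exceeded Cebpb at 0.88 ± 0.21, and Cebpd, an inducible C/EBP, was at 0.54 (limma adjusted p = 0.0724). Some factors were raised in other organs too. Of the 6, 3 were called higher in heart than in brain, and 2 in kidney than in the mean of brain and heart. Cebpd read 8.04 and 7.20 in heart Frozen and FFPE, above 7.35 and 6.80 in liver. Cebpb read 7.40 and 6.58 in heart Frozen and FFPE, close to 7.48 and 6.75 in liver. Hnf4a was 1.81 ± 0.23 higher in kidney than in the mean of brain and heart (limma adjusted p = 7.88e-07). Of 20 other proteins that rise in the acute phase, 18 were called higher and none lower, with a median of 2.30. Mbl1, a mannose-binding lectin, reached 4.00 ± 0.34 and Fgg, a fibrinogen chain, 3.59 ± 0.31. The remaining 2 were Hamp2 (2.05 ± 0.79, limma adjusted p = 0.0628) and Lcn2 (0.16, limma adjusted p = 0.825). All 10 plasma proteins that fall in the acute phase were called higher in liver as well, with a median of 2.73, led by Alb at 3.95 ± 0.27 and Rbp4 at 3.83 ± 0.28. The median of proteins that fall was thus no smaller than that of the 10 acute phase genes or of the others that rise. Of 12 genes for clearance and sensing, 4 were higher, among them the iron exporter Slc40a1 (1.67 ± 0.22) and the Fc receptor Fcgr2b (1.43 ± 0.27), and none was lower. Cd163, the haptoglobin-haemoglobin receptor, was at -0.07 and Lrp1, the hemopexin receptor, at 0.78 ± 0.23 (limma adjusted p = 0.0117).

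**Figure D5:**
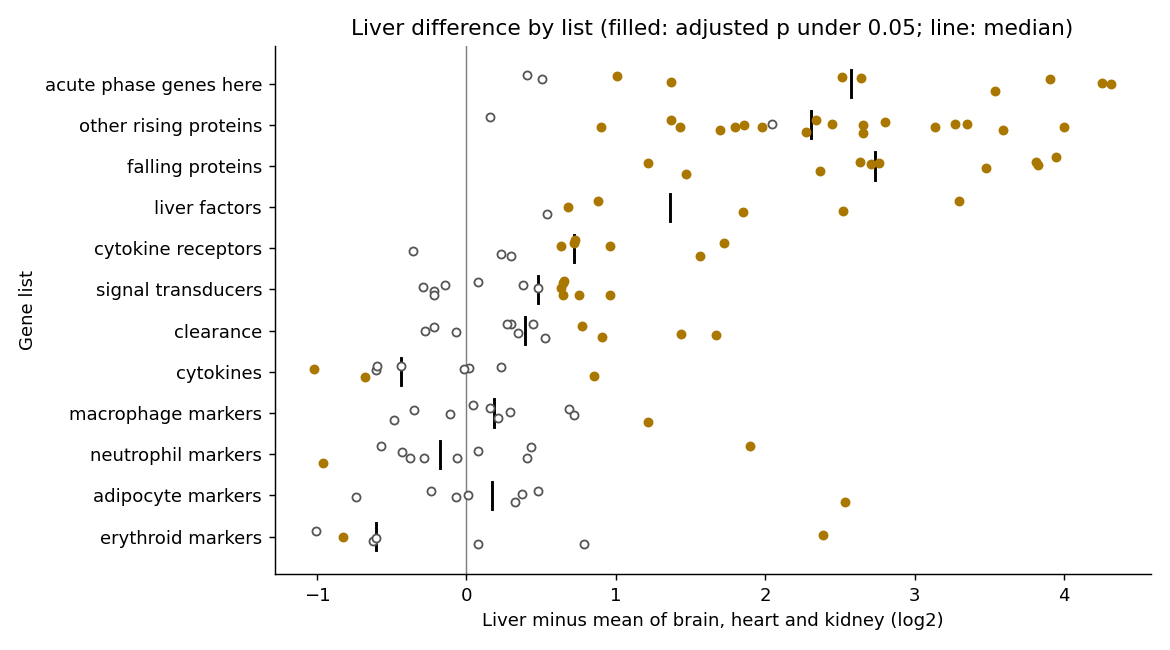
Each point is 1 gene's liver difference (log2, horizontal axis) within its list on the vertical axis, filled where the limma adjusted p was under 0.05, and the black line is the list's median. Medians of acute phase genes, other rising proteins and falling proteins lie between 2.30 and 2.73, and those of marker lists for macrophages, neutrophils, fat and erythroid cells lie near 0 or below.

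Saa3 and the orosomucoids are also known from macrophages, neutrophils or fat, so markers of these cells were read. Of 10 macrophage markers 1 was called higher in liver (Clec4f, a Kupffer cell lectin, 1.21 ± 0.30) and none lower, and their summed CPM was 166 and 192 in liver against 146 to 177 elsewhere. Of 10 neutrophil markers 1 was higher (Elane, 1.90 ± 0.36) and 1 lower (Ltf, -0.96 ± 0.28), with sums of 81.8 and 94.3 in liver against 73.6 to 87.8. Of 8 adipocyte markers 1 was higher (Cidec, 2.54 ± 0.29), with sums of 270 and 307 in liver against 147 to 412. Of 7 measured erythroid markers 1 was higher (Alas2, 2.38 ± 0.34) and 1 lower (Epb42, -0.82 ± 0.26), with sums of 76.7 and 99.7 against 68.1 to 121. The defining markers Adgre1, Ly6g and Adipoq were at 4.21, -0.33 and 3.37 in liver Frozen and at 4.70, 1.06 and 3.38 in liver FFPE, none of them called. The part of these cells in the signal of the acute phase genes was not tested.

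The genes with the most similar pattern to the median of the 10 over the 8 libraries were sought among 21819 genes outside all lists. Pzp, which encodes the plasma protease inhibitor pregnancy zone protein, and Ces3a, a liver carboxylesterase gene, had Pearson correlations of 0.997. C4b, a complement component, Slc27a5, a bile acid and fatty acid transport gene, and Itih2, an inter-alpha-trypsin inhibitor chain, followed at 0.994. These correlations describe 8 libraries that share their depth and their organ, with liver apart from the rest. The genes most like Saa2 were 4933416O17Rik (0.975), Hdac11 (0.972) and 4932438A13Rik (0.967), and those most like Saa3 were Ccp110 (0.976), Aadacl2 (0.975) and Plek2 (0.968). None of these 6 genes was called in the liver comparison.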

How the data were processed

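Brain, heart, kidney and liver of mice were profiled for H3K27Ac in Frozen and FFPE tissue. Per the submitters' processing notes, the authors used Bowtie2, featureCounts and limma with the build mm10. Their versions, the counted gene part and the treatment of multi-mapping reads were not given in the sources used here. Deposited values are log2 CPM scaled by the authors. This unit was worked out from the values: taken as log2 of a count plus 0.5 over an effective library size, 100% of them gave whole counts (tolerance 0.001), and that size was 0.749 to 1.22 of the total. All 8 columns were used. Of 27179 rows, 1275 had no symbol, and 25275 identifiers matched RefSeq genes of GRCm38, which gave positions.

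Tests were two-sided and made with limma (version 3.58.1, R 4.3.3; lmFit and eBayes, trend in the prior variance) on the deposited log2 values of 26944 genes, leaving out 235 genes at 0 counts in every library. The additive model held organ and preservation, with 1 liver by preservation term added for the last comparison. The threshold was a Benjamini-Hochberg adjusted p of 0.05 over all genes tested. P-values reflect only how these 8 libraries vary around the model, with each gene's variance drawn toward a prior taken from all genes. The labels do not say which libraries came from the same animal. The fit was also run on simulated counts with a liver difference in some genes and no preservation effect. Those counts were simpler than these libraries, so that run does not bear on the p-values here. Alternatives changed the trend, scaling, weights, pseudocount and filter, or left out 1 library.

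The 10 genes and all lists were chosen with earlier results of these data known. The genes were all described. A transcription factor of the lists and its motif are not reported here. From each pathway list the 2 genes with the largest liver difference past the threshold were named, beside the nearest gene on each side of each locus and the most alike genes with a mean of at least 2 log2 CPM. Lif, Il6ra, Il6st, Cebpa, Cebpb, Cebpd, Hamp2, Lcn2, Cd163, Lrp1, Inhbe, Rnf225 and the marker genes were named after their values were seen.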

Additional observations from a re-analysis of the deposited data

How the results depend on the processing

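Of the 50 differences of the acute phase genes (10 genes, 5 comparisons), 44 kept their side of the threshold in every alternative, of which there were up to 17, and no called difference changed its sign. In the liver comparison 8 genes were called, 6 to 8 when 1 library was left out and 7 to 8 in the other 9 alternatives. No gene was called in any alternative for kidney against brain and heart or for FFPE against Frozen. For heart against brain the count was 0 and became 2 after quantile normalization, 2 with the same median and spread, and 1 with the total count and no scaling factor, and it ran from 0 to 1 when 1 library was left out. For the liver preservation term the count was 0 and ran from 0 to 1 when 1 library was left out. That term could not be fitted with a liver library left out, because the remaining 1 gives no preservation difference in liver. The cause of the changes in these counts was not tested. Differences called in neither setting changed sign in 60 cases, over 20 pairs of gene and comparison.

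Over all genes, calls in the liver comparison were 5640 and ran from 2200 (without liver Frozen) to 6130. Those for kidney were 1963 (177 to 3113), for heart against brain 5688 (1979 to 6507), for preservation 1054 (369 to 1969) and for the liver preservation term 2 (0 to 692, the last without heart FFPE). With total counts outside mitochondrial genes 40.7% of liver calls were higher, against 53.5%, and the median of all genes was -0.20 against -0.06. With total counts alone the share of higher calls was 20.3% against 60.1% for heart against brain (medians -0.49 and -0.07), 76.4% against 57.8% for kidney (0.13 and -0.01) and 23.7% against 51.1% for preservation (-0.14 and 0.02).

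No paired analysis was possible because the columns carry no replicate number, so the fit with the replicate number as a block was not run. Precision rests on counts: outside liver each gene had 11 to 89.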
